A study of Mus musculus with 6 samples.

Results

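Aminoacyl-tRNA synthetases were followed as 36 genes among the 26384 gene entries of the expression table, 20 for enzymes of the cytosol and 16 for enzymes of mitochondria. They were taken by gene symbol, with the mitochondrial genes being those whose symbol ends in 2, and the most abundant entry was used where a symbol had several. All 36 had an entry. Aars, the cytosolic enzyme for alanine, shared its entry with Exosc6, a subunit of the RNA exosome, and Vars, the cytosolic enzyme for valine, had 2 entries.

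The libraries are bulk RNA-Seq of GFP+ leukemia cells sorted from the bone marrow of C57BL/6J mice. The cells arose from c-Kit+ bone marrow cells transduced with the MLL-AF9 fusion, a driver of acute myeloid leukemia, and had been passed through mice several times before use, so both groups share the fusion, the GFP reporter and this history. Of 6 libraries, 3 came from leukemic mice given FF-10501-01, and 3 from leukemic mice given vehicle on the same days. FF-10501-01 is an oral inhibitor of the guanine nucleotide enzyme IMPDH and was given at 160 mg/kg on 2 consecutive days. The methods give the vehicle as a methyl cellulose solution, but the descriptions of the vehicle samples say water. By the labels, marrow was taken 48 h after the first dose, but a passage of the methods gives a shorter interval, so the time is uncertain. The comparison asks which synthetase transcripts differ in leukemia cells after IMPDH inhibition in the animal. Replicates 1 to 3 of each group are named here by the order of the table's columns, which are not tied to a mouse. The mice were 8 to 12 weeks old.

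An aminoacyl-tRNA synthetase joins an amino acid to its tRNA at the cost of ATP, and the loaded tRNA then serves the ribosome. The cytosolic set serves the translation of nuclear genes, and several of its members are bound together in a multisynthetase complex with the scaffold proteins Aimp1, Aimp2 and Eef1e1. The mitochondrial set is encoded in the nucleus and imported, and it serves the few proteins made inside mitochondria. Uncharged tRNA is sensed by the kinase Gcn2, whose signal raises the transcription factor ATF4, and ATF4 is known to drive many cytosolic synthetase genes together with genes of amino acid synthesis and uptake.

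Library depths, estimated from the steps between low FPKM values, were 0.986 to 1.108 times that of vehicle replicate 1 in FF-10501-01 libraries and 1.00 to 1.25 times in vehicle libraries. All 8 markers listed for the leukemia cells were expressed, of which Itgam (0.33) and the merged entry of Hoxa9 (0.27) rose and Kit (-0.27) fell on the log2 scale. Hoxa9, merged with Mir196b, was close to the threshold (limma, adjusted p = 0.0465), as was Kit (adjusted p = 0.0476). The paper, which used Cuffdiff, reports that Hoxa9 and Meis1 were not affected by FF-10501-01. T and NK cell markers summed to at most 0.767 FPKM in any library. B and plasma cell markers summed to 5.64 to 6.58 FPKM in FF-10501-01 libraries and 7.98 to 8.91 FPKM in vehicle libraries. Only 1 of them was tested, Cd79b, and it fell (-0.37 on the log2 scale, limma, adjusted p = 0.0214). Neutrophil markers summed to 989 to 1991 FPKM in FF-10501-01 libraries, against 574 to 635 FPKM in vehicle libraries. Tissue macrophage markers summed to 124 to 147 FPKM in FF-10501-01 libraries and 91.2 to 110 FPKM in vehicle libraries. Of the 3 tested, Cd68 and Vcam1 rose. Cd163 went the other way, with means of 0.429 FPKM after FF-10501-01 and 1.98 FPKM in vehicle libraries (limma, adjusted p = 0.0532). The paper reports a rise of Vcam1 on the treated leukemia cells themselves. Platelet markers summed to 15.7 to 24.3 FPKM in FF-10501-01 libraries and 9.97 to 10.9 FPKM in vehicle libraries. Most of this was an entry that merges Gp1bb with Sept5, with means of 17.1 FPKM and 7.83 FPKM. Erythroid markers summed to 18.9 to 23.3 FPKM in FF-10501-01 libraries, against 29.3 to 40.3 FPKM in vehicle libraries. Most of this sum was Tfrc, at 21.8, 19.7 and 18.6 FPKM in FF-10501-01 replicates, against 34.1, 30.9 and 20.9 FPKM in vehicle replicates. Of the 2 erythroid markers tested, neither Tfrc (limma, adjusted p = 0.0772) nor Alas2 (adjusted p = 0.0861) reached an adjusted p under 0.05. Whether these markers came from other cell types or from the leukemia cells was not tested, nor was their part in the results. In sorted bulk cells, fewer cells of a type and less RNA per cell cannot be told apart.

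The synthetase transcripts were close to level between treatments. In limma's test on log2(FPKM + 1) over 11004 entries with a mean of at least 1 FPKM, 1 of the 36 genes rose (Cars2) and 2 fell (Iars2 and Sars2), all of them mitochondrial. Over all entries tested, 7.43% were called higher and 7.46% lower. The 3 called synthetase genes, counted in both directions, were 8.33% of the 36, which is below the sum of these 2 shares. The same 3 genes were 18.8% of the 16 mitochondrial genes, which is above that sum. None of the 20 cytosolic genes passed, and 0 of them had an unadjusted p under 0.05, against 32.8% of all entries, with Vars taken by its more abundant entry. FPKM counts fragments per length of transcript, scaled to the library, so levels can be set side by side between genes.

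Cytosolic synthetase genes were the more abundant. Their means over the 6 libraries ran between 23.1 and 185 FPKM with a median of 51.5 FPKM, and those of the mitochondrial genes between 2.47 and 32.4 FPKM with a median of 10.1 FPKM. By its more abundant entry Vars led the cytosolic genes, but its other entry, at 83.0 FPKM, would place it below Kars (lysine) at 130 FPKM, Dars (aspartate) at 100.3 FPKM, Nars (asparagine) and Farsa (phenylalanine, 86.3 FPKM). Cars (cysteine) was the lowest. Iars2 (isoleucine) led the mitochondrial genes, followed by Tars2 (threonine) at 23.9 FPKM and Lars2 (leucine) at 21.3 FPKM, and 8 of the 16 lay under 10 FPKM, with Mars2 (methionine), Nars2 (asparagine) and Pars2 (proline) at the bottom. Summed over each set, the cytosolic genes held 1287, 1258 and 1274 FPKM in FF-10501-01 replicates 1 to 3, against 1234, 1355 and 1231 FPKM in vehicle replicates 1 to 3. The mitochondrial genes held 191, 202 and 192 FPKM in FF-10501-01 replicates, against 198, 210 and 200 FPKM in vehicle replicates. In both sums the treatments overlapped.

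**Figure D1:**
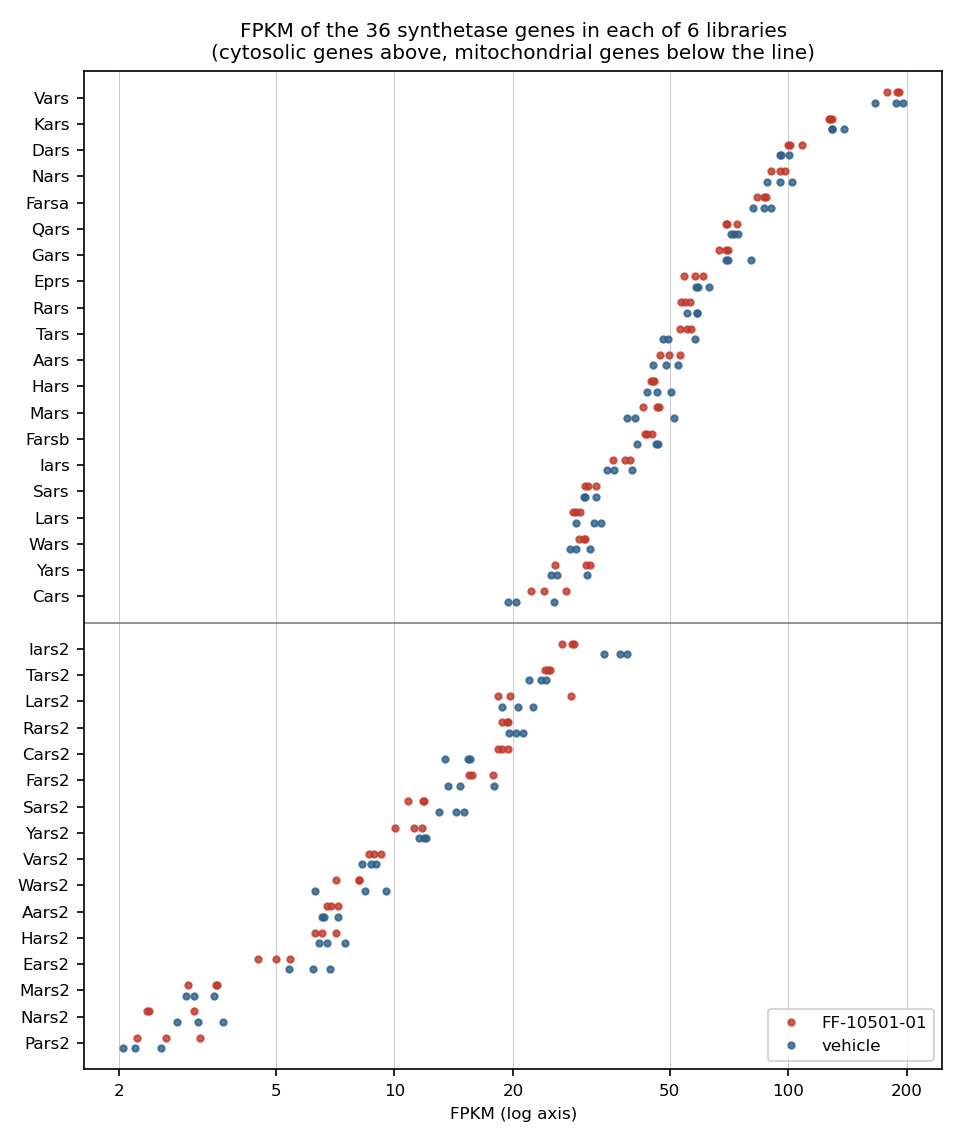
FPKM on a log axis for each of the 36 synthetase genes (rows, by mean level within the cytosolic and the mitochondrial set), with 3 FF-10501-01 libraries in red and 3 vehicle libraries in blue as points. Cytosolic means span 23.1 to 185 FPKM and mitochondrial means 2.47 to 32.4 FPKM, and red and blue points separate for few genes.

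The cytosolic set showed no gene that passed the test. The median log2 difference, FF-10501-01 minus vehicle, was 0.00 over the 20 genes, beside -0.01 over all entries tested, and single genes ran from -0.11 (Lars, leucine) to 0.17 (Cars), 10 above zero and 10 below. The data bound these differences: the 95% confidence interval lay within ±0.5 on the log2 scale for all 20 genes and within ±0.25 for 16. Only Kars had groups that did not overlap, 1 of 20 genes, where 38.8% of all entries did not overlap. In 14 alternative settings of the analysis, 0 called a cytosolic gene. These counts use the more abundant entry of Vars: its lower entry had an unadjusted p of 0.00846 and groups that did not overlap, and it passed in 3 of the settings.

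The 3 cytosolic genes with the smallest p were Lars, Dars and Cars. Lars measured 29.6, 29.0 and 28.4 FPKM in FF-10501-01 replicates, against 32.1, 33.4 and 29.0 FPKM in vehicle replicates, a log2 difference of -0.11 ± 0.06 (SE; limma, adjusted p = 0.218). Dars measured 101, 109 and 99.9 FPKM in FF-10501-01 replicates, against 95.1, 100.8 and 95.9 FPKM in vehicle replicates, a difference of 0.09 ± 0.05 (adjusted p = 0.240). Vehicle replicate 3 reached into the treated range for Lars, and vehicle replicate 2 did so for Dars. Cars measured 23.9, 22.3 and 27.3 FPKM in FF-10501-01 replicates, against 20.4, 25.5 and 19.5 FPKM in vehicle replicates. Its log2 difference of 0.17 ± 0.11 (adjusted p = 0.305) had the widest interval of the set, -0.08 to 0.41, and vehicle replicate 2 again lay within the treated range.

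Gars and Kars, which load glycine and lysine, make the enzymes of both compartments from 1 gene each. Gars measured 70.3, 66.8 and 69.7 FPKM in FF-10501-01 replicates, against 70.6, 80.4 and 69.7 FPKM in vehicle replicates, a log2 difference of -0.09 ± 0.06 (SE; limma, adjusted p = 0.328). Kars measured 127, 129 and 128 FPKM in FF-10501-01 replicates, against 129, 139 and 129 FPKM in vehicle replicates, a difference of -0.05 ± 0.04 (adjusted p = 0.457). All 3 treated values of Kars sat below all 3 vehicle values, by less than 1 FPKM at the closest.

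No subset of the cytosolic genes held a call. The 8 synthetases of the multisynthetase complex (Dars, Eprs, Iars, Kars, Lars, Mars, Qars and Rars) had a median log2 difference of -0.04, and the 12 outside it 0.02. The 9 enzymes for large neutral amino acids had a median of 0.02, and the 11 for other amino acids -0.01. By fold of the catalytic domain, the 9 class I genes had a median of 0.03 and the 10 class II genes -0.01. Of the scaffold genes of the complex, Aimp1 had a difference of -0.11 (limma, adjusted p = 0.161), Aimp2 of 0.05 (adjusted p = 0.438) and Eef1e1 of 0.02 (adjusted p = 0.861).

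**Figure D2:**
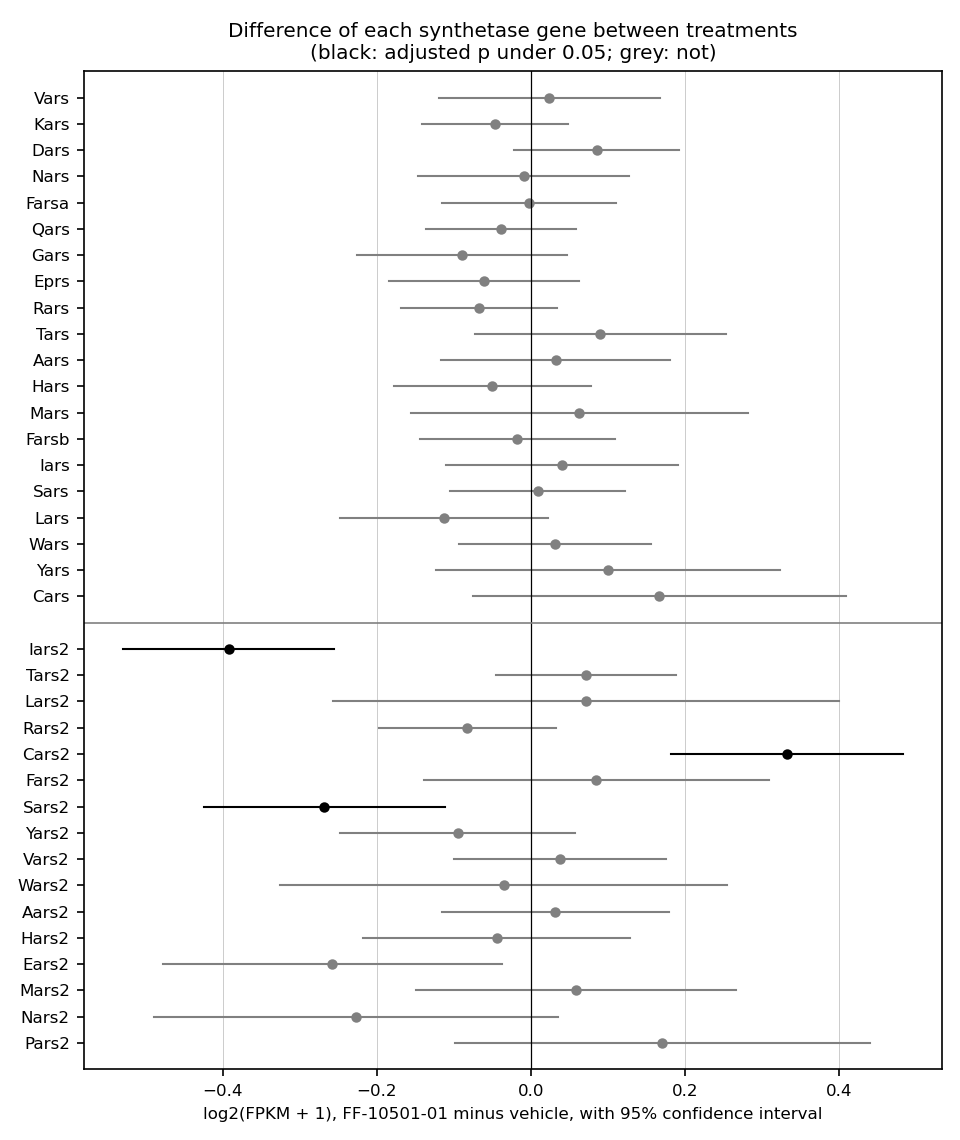
Log2 difference in FPKM + 1, FF-10501-01 minus vehicle, for each synthetase gene (rows as in the plot of levels), with a point for the estimate and a bar for its 95% confidence interval, black where the adjusted p was under 0.05. The cytosolic genes centre on 0.00, and Iars2 (-0.39), Sars2 (-0.27) and Cars2 (0.33) are the black genes.

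Wars, the cytosolic enzyme for tryptophan, is known as an interferon gamma induced gene. It measured 30.4, 30.3 and 29.4 FPKM in FF-10501-01 replicates, against 28.9, 31.5 and 27.9 FPKM in vehicle replicates, with all treated values inside the vehicle range. The log2 difference was 0.03 ± 0.05 (SE; limma, adjusted p = 0.723), with a 95% confidence interval of -0.09 to 0.16. In the same libraries 4 of 8 tested genes of a list of other interferon gamma targets rose, beside 7.43% of all entries tested. The median log2 difference of the 8 was 1.02. Among them Gbp2, a guanylate-binding protein of the interferon response, measured 54.3, 38.3 and 82.1 FPKM in FF-10501-01 replicates, against 6.97, 31.9 and 10.7 FPKM in vehicle replicates (difference 1.96 ± 0.48, SE; limma, adjusted p = 0.0308). The call of Gbp2 held in 7 of 14 alternative settings, with differences of 1.53 to 2.55, and was lost without FF-10501-01 replicate 1 or 3 or vehicle replicate 1 or 3 (adjusted p of 0.0643 to 0.115).

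Promoter sequences were read for 27 of the 36 genes, 13 cytosolic and 14 mitochondrial, as the RefSeq windows on GRCm38.p6 that run 250 bases before to 50 bases after the gene start. Mars was matched through its current symbol, and Vars, Nars, Rars, Hars, Lars, Wars, Cars, Hars2 and Pars2 were unmatched. The binding letters of ATF4, called CARE and searched as TGATGNAA on both strands, occurred in 5 of 13 cytosolic promoters, 0 of 14 mitochondrial promoters and 4.06% of 27025 promoters in all. A match in each of these 5 genes is shown because they are set against the measured levels next, each 30 bases long on the gene's strand with the CARE letters in capitals.
Aars (chr8:111033840-111033869, plus strand): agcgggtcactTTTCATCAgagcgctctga
Gars (chr6:55037960-55037989, plus strand): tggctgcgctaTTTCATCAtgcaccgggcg
Iars (chr13:49682126-49682155, plus strand): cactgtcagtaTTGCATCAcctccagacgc
Tars (chr15:11399655-11399684, minus strand): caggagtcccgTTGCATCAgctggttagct
Yars (chr4:129189895-129189924, plus strand): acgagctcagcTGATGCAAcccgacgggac
Yars held the letters as searched, and the other genes held the reverse complement.

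The 5 genes with CARE letters, which load alanine, glycine, isoleucine, threonine and tyrosine, had log2 differences of -0.09 to 0.10 between treatments, with a median of 0.04. Tars measured 56.8, 53.1 and 55.4 FPKM in FF-10501-01 replicates, against 49.5, 58.1 and 48.0 FPKM in vehicle replicates. Yars measured 31.4, 25.5 and 30.7 FPKM in FF-10501-01 replicates, against 25.8, 30.8 and 25.0 FPKM in vehicle replicates. Vehicle replicate 2 lay above the treated libraries for Tars and among them for Yars, while vehicle replicates 1 and 3 lay below all treated libraries for Tars and close to FF-10501-01 replicate 2 for Yars.

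The cytosolic genes varied more among vehicle libraries than among treated ones. The median coefficient of variation was 3.44% among FF-10501-01 libraries and 7.22% among vehicle libraries. Vehicle replicate 2 was the highest vehicle library for 19 of 20 cytosolic genes, 9 of 16 mitochondrial genes and 37.6% of all entries tested. It exceeded the mean of vehicle replicates 1 and 3 by a median ratio of 1.11 over the cytosolic genes, 1.06 over the mitochondrial genes and 1.01 over all entries. Its depth was 1.00 times that of vehicle replicate 1.

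The ratio was also set against the CARE letters, after the values were seen. It was 1.12 to 1.21 for the 5 genes with CARE letters (median 1.15), and had a median of 1.07 for the 8 with a promoter and none, of which 7 lay at or below 1.08 and Mars (methionine) stood at 1.29. Of the 7 genes whose promoter was not read, Cars had 1.28 and the other 6 had 1.03 to 1.12. Of 21 tested genes of a list of ATF4 and its targets, 19 were also highest in vehicle replicate 2 among vehicle libraries, with a median ratio of 1.18, among them Atf4 itself and Asns, which makes asparagine. Atf4 measured 160, 181 and 179 FPKM in FF-10501-01 replicates, against 188, 213 and 161 FPKM in vehicle replicates. Asns measured 43.2, 40.5 and 45.0 FPKM in FF-10501-01 replicates, against 38.2, 52.1 and 41.9 FPKM in vehicle replicates. Interferon gamma targets moved in the same library: 7 of 8 were highest there among vehicle libraries, with a median ratio of 1.67. The pattern rests on vehicle replicate 2 alone, and the part of ATF4 or of interferon in it was not tested.

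**Figure D3:**
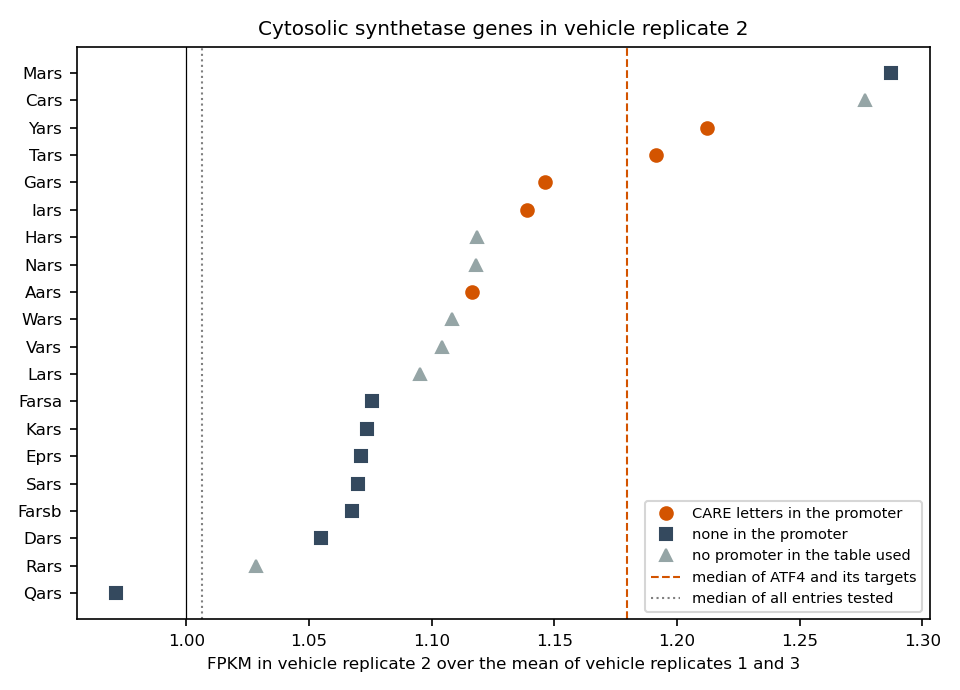
Ratio of FPKM in vehicle replicate 2 to the mean of vehicle replicates 1 and 3 for the 20 cytosolic synthetase genes (rows, by ratio), with symbols for CARE letters in the promoter, none, or no promoter read. The 5 genes with CARE letters lie between 1.12 and 1.21, below Mars (1.29, none in the promoter) and Cars (1.28, no promoter read). The dashed and dotted lines are the medians of ATF4 and its targets (1.18) and of all entries tested (1.01). The part of ATF4 was not tested.

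Without vehicle replicate 2, the median log2 difference of the cytosolic genes was 0.04, and still none passed the test. ATF4 and its targets had 1 gene that rose and 2 that fell between treatments, of 21 tested, with a median log2 difference of -0.05. Of all entries tested, 7.43% were called higher and 7.46% lower. Nupr1, a stress-induced chromatin protein, rose (0.43 ± 0.12, adjusted p = 0.0417), and the serine synthesis enzyme Phgdh fell (-0.98 ± 0.08, adjusted p = 0.00601), as did the amino acid transporter chain Slc3a2 (-0.28 ± 0.08, adjusted p = 0.0473; limma, SE). Phgdh passed in 14 of 14 alternative settings, Nupr1 in 7 and Slc3a2 in 5. The call of Nupr1 was lost without FF-10501-01 replicate 1 or 3 or vehicle replicate 1 or 3 (highest adjusted p = 0.119), and that of Slc3a2 without any 1 library other than vehicle replicate 3 (highest adjusted p = 0.147). Of the 6 genes of Gcn2 sensing, Eif2ak4, which encodes Gcn2, fell by 0.23 ± 0.06 on the log2 scale (adjusted p = 0.0427) and the others did not pass, with Eif2s1 the most abundant (adjusted p = 0.598). The call of Eif2ak4 held in 4 of 14 alternative settings and was lost without any 1 of the 6 libraries (adjusted p of 0.056 to 0.121).

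Among the 16 mitochondrial genes, Iars2 and Sars2 fell, Cars2 rose and 13 did not pass. Their median log2 difference was 0.00 and single genes ran from -0.39 to 0.33. The 95% confidence interval lay within ±0.5 for 15 genes and within ±0.25 for 6, so small changes were less tightly bounded than in the cytosolic set. An unadjusted p under 0.05 was reached by 4 of the 16 genes, beside 32.8% of all entries, and 4 had groups that did not overlap (Cars2 above, and Iars2, Sars2 and Rars2 below), beside 38.8% of all entries.

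Iars2, which loads isoleucine onto mitochondrial tRNA, showed the lowest difference of the 36 genes. It measured 28.3, 28.6 and 26.6 FPKM in FF-10501-01 replicates, against 39.0, 37.5 and 34.2 FPKM in vehicle replicates. Every treated library lay below every vehicle library, and the means were 27.8 ± 1.08 FPKM and 36.9 ± 2.49 FPKM (SD, n = 3 each), 24.6% lower after FF-10501-01. The log2 difference was -0.39 ± 0.06 (SE; limma, adjusted p = 0.0116), and it passed in 14 of 14 alternative settings. The gene lies on the minus strand at chr1:185284726-185329396 (GRCm38) and overlaps Rab3gap2 on the plus strand over 2034 bases. Rab3gap2 measured 29.3, 29.7 and 28.9 FPKM in FF-10501-01 replicates, against 31.0, 31.4 and 27.6 FPKM in vehicle replicates, with overlapping groups (-0.03, adjusted p = 0.737). The library kit marks strand, but whether the FPKM used it is not given in the sources used here. Eprs, the cytosolic enzyme for glutamate and proline, lies on the plus strand of the same chromosome at chr1:185363044-185428360 and had a difference of -0.06 (adjusted p = 0.463).

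Sars2, which loads serine onto mitochondrial tRNA, fell less. It measured 11.9, 10.8 and 11.8 FPKM in FF-10501-01 replicates, against 14.3, 15.0 and 13.0 FPKM in vehicle replicates, so the groups did not overlap. The means were 11.5 ± 0.594 FPKM and 14.1 ± 1.03 FPKM (SD, n = 3 each), 18.3% lower after FF-10501-01. The log2 difference was -0.27 ± 0.07 (SE; limma, adjusted p = 0.0362), a call that held in 6 of 14 alternative settings. It was lost without any 1 library other than vehicle replicate 3, with adjusted p of 0.0618 to 0.107. The gene lies on the plus strand at chr7:28741992-28753871, and Mrps12, a protein of the small mitochondrial ribosome subunit, starts 172 bases away on the other strand. Mrps12 measured 50.7, 49.4 and 51.5 FPKM in FF-10501-01 replicates, against 42.5, 45.9 and 46.9 FPKM in vehicle replicates. Its treated values were all above its vehicle values (0.16, adjusted p = 0.0599), opposite in sign to those of Sars2.

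Cars2, which loads cysteine onto mitochondrial tRNA and is also known to make cysteine persulfide, rose. It measured 18.8, 18.3 and 19.5 FPKM in FF-10501-01 replicates, against 13.4, 15.4 and 15.6 FPKM in vehicle replicates. The groups did not overlap, and the means were 18.9 ± 0.571 FPKM and 14.8 ± 1.20 FPKM (SD, n = 3 each), 27.5% higher after FF-10501-01. The log2 difference was 0.33 ± 0.07 (SE; limma, adjusted p = 0.0195). It passed in 12 of 14 alternative settings and was lost without FF-10501-01 replicate 3 (adjusted p = 0.0760) and with no filter on low values (adjusted p = 0.0502). The gene lies on the minus strand at chr8:11513977-11550783 and overlaps Naxd, listed in the table as Carkd, on the plus strand over 984 bases. Carkd measured 33.0, 33.5 and 31.8 FPKM in FF-10501-01 replicates, against 33.1, 33.3 and 33.9 FPKM in vehicle replicates (-0.03, adjusted p = 0.691).

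**Figure D4:**
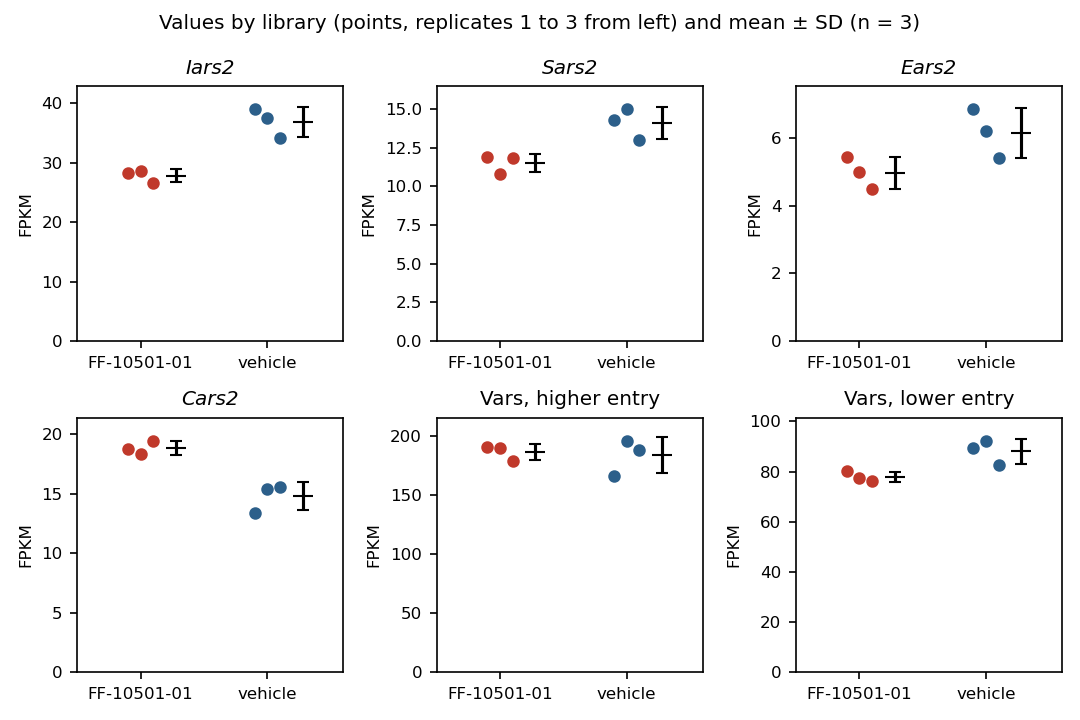
FPKM by library for 4 mitochondrial genes and for both Vars entries, each panel with its own axis from 0, points for replicates and bars for mean ± SD (n = 3). Iars2, Sars2 and the lower Vars entry show treated points below all vehicle points, Cars2 shows them above, and Ears2 and the higher Vars entry overlap.

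The 150 bases before the RefSeq start of these 3 genes are printed to show what the called members carry, with matches to any of 7 searched motifs in capitals (ATTGG is CCAAT read from the other strand, and CTTCCGG is the ETS letters CCGGAAG likewise).
Iars2 (chr1:185329402-185329551, minus strand): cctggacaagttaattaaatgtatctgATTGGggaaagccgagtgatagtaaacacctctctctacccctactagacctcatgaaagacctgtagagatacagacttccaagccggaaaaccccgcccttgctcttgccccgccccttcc
Sars2 (chr7:28741818-28741967, plus strand): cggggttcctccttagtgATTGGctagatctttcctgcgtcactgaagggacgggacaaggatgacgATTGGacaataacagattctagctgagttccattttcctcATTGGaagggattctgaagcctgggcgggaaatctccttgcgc
Cars2 (chr8:11550772-11550921, minus strand): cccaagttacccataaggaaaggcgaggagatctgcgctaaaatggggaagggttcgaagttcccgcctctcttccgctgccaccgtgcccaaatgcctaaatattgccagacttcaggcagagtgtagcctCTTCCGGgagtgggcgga
Sars2 held 3 CCAAT boxes in this stretch, starting 132, 83 and 43 bases before the start. Iars2 held 1 and Cars2 held 1 ETS match.

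Over the full 300-base windows, CCAAT occurred in 7 of 13 cytosolic and 6 of 14 mitochondrial promoters, beside 37.92% of all promoters. The ETS letters occurred in 5 of 13 cytosolic promoters and 4 of 14 mitochondrial promoters (Cars2, Mars2, Rars2 and Sars2), beside 9.12% of all. The E-box of MYC, CACGTG, occurred in 4 of 13 cytosolic promoters (Aars, Farsb, Iars and Tars) and in 1 of 14 mitochondrial promoters (Ears2), beside 7.24%. The YY1 letters AAGATGGC occurred in 1 and 3 promoters of the 2 sets, beside 2.88%, the interferon response element in Qars alone, beside 3.49%, and the NRF1 core in none, beside 0.98%. Matches of different motifs overlapped in 0 cases, and the genes that fell and the gene that rose shared CCAAT in their windows.

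Of the mitochondrial genes that did not pass, Ears2 came closest. Ears2, which loads glutamate, measured 5.43, 4.99 and 4.49 FPKM in FF-10501-01 replicates, against 6.85, 6.20 and 5.40 FPKM in vehicle replicates, where FF-10501-01 replicate 1 lay just above vehicle replicate 3. Its log2 difference was -0.26 ± 0.10 (SE; limma, adjusted p = 0.103). Rars2 (arginine) had groups that did not overlap with a difference of -0.08 (adjusted p = 0.283). Lars2 (leucine) measured 18.3, 28.2 and 19.6 FPKM in FF-10501-01 replicates, against 18.7, 22.5 and 20.5 FPKM in vehicle replicates, so that FF-10501-01 replicate 2 stood above the other libraries. Tars2, Fars2, Yars2, Vars2, Wars2, Aars2, Hars2, Mars2, Nars2 and Pars2 had overlapping groups, with differences between -0.23 (Nars2) and 0.17 (Pars2).

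The 2 entries of Vars gave different pictures. The more abundant entry measured 191, 190 and 179 FPKM in FF-10501-01 replicates, against 166, 196 and 188 FPKM in vehicle replicates, with a log2 difference of 0.02 ± 0.06 (SE; limma, adjusted p = 0.817). The lower entry measured 80.2, 77.4 and 76.4 FPKM in FF-10501-01 replicates, against 89.3, 92.3 and 82.6 FPKM in vehicle replicates. Its treated values were all below its vehicle values, with a difference of -0.17 ± 0.05 and an adjusted p of 0.0533. The table runs strand by strand: for the other 35 synthetase genes, at least 92.9% of the annotated entries within 8 rows lay on the gene's own strand. Vars lies on the plus strand at chr17:35000987-35016322. The lower entry sat among neighbours of which 12 of 12 were on the plus strand, and the more abundant entry among neighbours of which 14 of 15 were on the minus strand. What each entry counts is not given in the sources used here. Summed over both entries, Vars had a difference of -0.04 (adjusted p = 0.632).

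An amino acid with an enzyme in each compartment allows a ratio within each library, which does not depend on the scaling between libraries. Of 16 such ratios, cytosolic over mitochondrial FPKM, 4 had FF-10501-01 values above all vehicle values, and the other 12 overlapped. Of single entries in these libraries, 38.8% had groups that did not overlap. The isoleucine ratio (Iars to Iars2) was 1.40, 1.25 and 1.45 in FF-10501-01 replicates, against 0.887, 1.07 and 1.05 in vehicle replicates. The serine ratio (Sars to Sars2) was 2.56, 2.86 and 2.74 in FF-10501-01 replicates, against 2.12, 2.17 and 2.35 in vehicle replicates. In both the mitochondrial gene had fallen, while Iars had a log2 difference of 0.04 and Sars of 0.01. The glutamate ratio (Eprs to Ears2) was 1.18 times and the asparagine ratio (Nars to Nars2) 1.23 times as high in FF-10501-01 libraries as in vehicle libraries, without either mitochondrial gene passing the test. For the lower Vars entry, the valine ratio to Vars2 was 8.76 ± 0.436 in FF-10501-01 libraries and 10.2 ± 0.159 in vehicle libraries (SD, n = 3 each), with groups that did not overlap. The cysteine ratio (Cars to Cars2) overlapped, at 1.27, 1.22 and 1.40 in FF-10501-01 replicates, against 1.52, 1.65 and 1.25 in vehicle replicates.

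**Figure D5:**
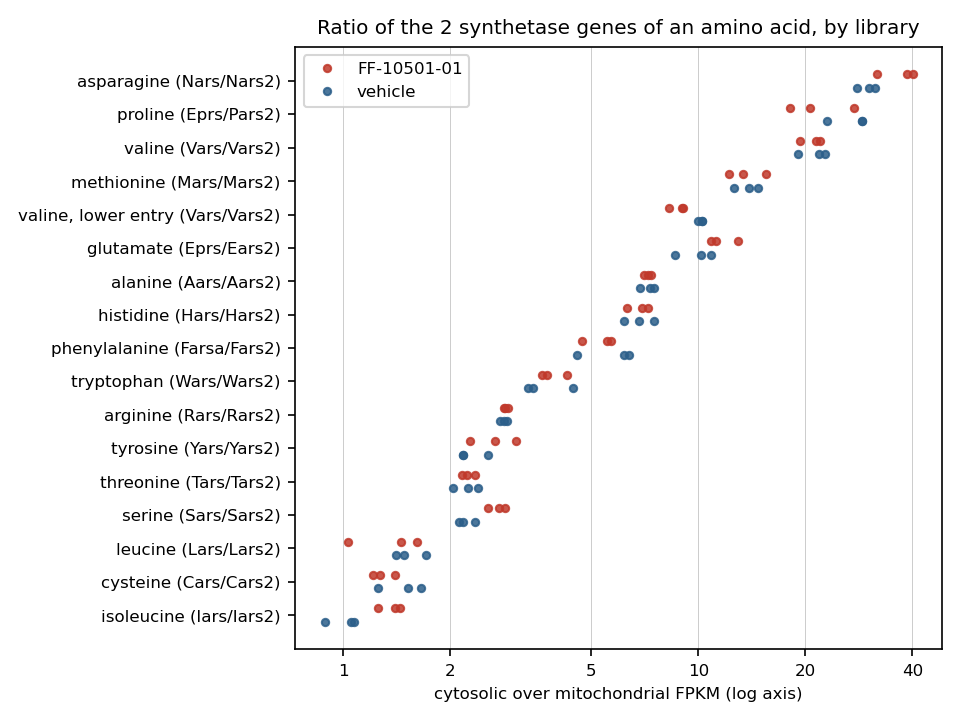
Cytosolic over mitochondrial FPKM on a log axis for each amino acid with a gene in both sets (rows), with 3 FF-10501-01 libraries in red and 3 vehicle libraries in blue as points. The red points lie above all blue points for isoleucine, serine, glutamate and asparagine, below them for the lower entry of Vars, and overlap elsewhere.

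The rest of the tRNA pathway was read from lists written from general knowledge. Of 12 tested genes that help charging, 1 fell, Dtd1, which removes wrongly attached D-amino acids from tRNA. Of all entries tested, 7.46% were called lower. Dtd1 measured 34.2, 34.8 and 33.3 FPKM in FF-10501-01 replicates, against 43.2, 38.8 and 38.1 FPKM in vehicle replicates (-0.22 ± 0.06, SE; limma, adjusted p = 0.0349). The call held in 7 of 14 alternative settings and was lost without any 1 library other than vehicle replicate 2 (highest adjusted p = 0.116). Eef1e1 was the most abundant gene of this list that did not pass. Of 9 mitochondrial translation factors, 0 passed (2 with an unadjusted p under 0.05), with Tufm, the elongation factor, the most abundant (adjusted p = 0.483).

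The genes of tRNA modification that passed all had lower values after FF-10501-01. Of 35 tested tRNA modification genes, 6 fell and 0 rose, with a median log2 difference of -0.07. Of all entries tested, 7.46% were called lower and 7.43% higher. Mettl1, which methylates guanine in tRNA, measured 11.6, 12.0 and 13.6 FPKM in FF-10501-01 replicates, against 15.9, 17.6 and 16.0 FPKM in vehicle replicates (-0.39 ± 0.07, SE; limma, adjusted p = 0.0160). Trmt6, a subunit of an adenosine methyltransferase (-0.32, adjusted p = 0.0164), Nsun2, a cytosine methyltransferase (-0.22, adjusted p = 0.0270), and Pus7, a pseudouridine synthase (-0.26, adjusted p = 0.0297), also fell. Mettl1 passed in 14 of 14 alternative settings, Trmt6 in 12, Nsun2 in 9 and Pus7 in 7. Without FF-10501-01 replicate 3 or vehicle replicate 1 the calls of Trmt6, Nsun2 and Pus7 were lost, Nsun2 was also lost without FF-10501-01 replicate 2 and Pus7 without any 1 library (adjusted p of 0.0534 to 0.105). The most abundant entry that did not pass merges Dnm2 with Qtrt1, of the queuine enzyme (adjusted p = 0.0968). Of 19 tested genes of tRNA processing and export, Pop5, a subunit of RNase P, rose (0.38, adjusted p = 0.0329), and Trnt1, which adds the CCA end to which amino acids are joined, fell (-0.28, adjusted p = 0.0290), with Hsd17b10 the most abundant that did not pass (adjusted p = 0.910). Pop5 passed in 8 and Trnt1 in 9 of 14 alternative settings. Both were lost without FF-10501-01 replicate 2 or 3 or vehicle replicate 1, Pop5 also without vehicle replicate 3 and Trnt1 without vehicle replicate 2 (adjusted p of 0.0512 to 0.114).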

How the data were processed

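The labels and the study's methods name 6 bulk RNA-Seq libraries, FF-10501-01 (n = 3) and vehicle (n = 3). The authors deposited FPKM per gene entry; their processing notes list cutadapt 1.8.1, TopHat2 2.1.1, Cufflinks 2.2.1 and GRCm38. Of the entries, 394 merge several genes and 9091 were at 0 in every library. Read totals are not used here, so no counting interval was computed. FPKM were analysed as log2(FPKM + 1) with limma 3.58.1 in R 4.3.3, over 11004 entries with a mean of at least 1 FPKM, with treatment as the only term, eBayes with a trend, two-sided tests and Benjamini-Hochberg adjustment over all entries; differences are on that scale, which understates changes of low genes. An adjusted p under 0.05 counted as passed. The fit was tested on simulated data. Same-numbered libraries did not deviate together (r of -0.01, -0.07 and -0.04), and the main fit took them as unpaired. With 3 libraries a group and columns not tied to a mouse, this cannot exclude pairing. Values by library are given for genes that passed, the 3 genes of a compartment with the smallest p where fewer passed, the most abundant gene of each, Wars, Gars and Kars, and some further genes chosen after their values were seen (Tars, Yars, Atf4, Asns, Ears2, Lars2). Of each other list, at most 4 passed genes (by p) and the top expressed gene that failed are named. Members and lists were chosen with earlier results of these data known. Promoters come from RefSeq, gene positions from GENCODE, both GRCm38. Python 3.11.15 with pandas 2.3.3, numpy 2.4.6 and matplotlib 3.10.9 served for the rest. Alternatives changed the pseudocount, filter, scaling, variance model, replicate block and libraries. Some items are not reported here.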

Additional observations from a re-analysis of the deposited data

How the results depend on the processing

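Of the 36 genes, 1 was called higher and 2 lower. Iars2 kept its call in every alternative run. With no filter on low values 0 were higher and 1 lower, and without a trend in the variance 1 was lower. No pairing of same-numbered libraries is known, and with the replicate block 1 was higher and 1 lower, with 650 entries higher and 602 lower in all. Leaving out each library in turn gave 0 to 1 higher (0 without FF-10501-01 replicate 3) and 1 to 2 lower (2 only without vehicle replicate 3), and over all entries 147 to 884 higher and 71 to 789 lower, against 818 and 821 with all libraries. The median log2 difference of mitochondrial genes ran from -0.0376 to 0.0591 when 1 library was left out (0.0591 without vehicle replicate 2). Vars ran from -0.0449 (without vehicle replicate 1) to 0.0723 and was -0.0381 as the sum of its entries, and Wars ran from -0.00463 (without vehicle replicate 3) to 0.0789. Over all entries, no filter gave 337 higher and 244 lower, and no trend 586 and 512. Higher calls were 49.9% of all calls, 60.2% after rescaling to TPM, 67.4% without FF-10501-01 replicate 3 and 66.9% without vehicle replicate 1. A minimum mean of 5 FPKM left 33 of the genes tested. The lower Vars entry passed at that minimum (adjusted p = 0.0494), with quantile normalization (0.0382) and without vehicle replicate 3 (0.0460). Read depth is known only relative to vehicle replicate 1, and 3 libraries a group limit what can be bounded, most for genes under 10 FPKM.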
